A study of Mus musculus with 6 samples.

Results

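The 10 transcription factor genes described here steer blood lineage choice, and their transcripts were measured in LT-HSCs (long-term haematopoietic stem cells), the marrow cells that renew the blood system for life. The 10 genes are Gata1, Gata2, Gata3, Zfpm1, Spi1, Irf8, Cebpa, Cebpb, Ikzf1 and Ikzf2. They, and the gene lists set beside them below, were chosen by name for known roles, with earlier results of these data known. All 10 were found among the 21761 genes of the deposited count table. The study compared 2 genotypes with 3 libraries each to ask what IMP1, an RNA-binding protein encoded by Igf2bp1, does when it is made again in adult blood cells. Control donors were Rosa26 +/+;Mx1-Cre tg/+, and IMP1 donors were Rosa26 I/+;Mx1-Cre tg/+, with a Cre-dependent IMP1 knock-in at the Rosa26 locus. In both groups donor marrow of the CD45.2 allotype had been transplanted into lethally irradiated CD45.1/2 hosts. Both groups also shared the Mx1-Cre transgene and the injections of poly(I:C), a double-stranded RNA that induces the Mx1 promoter through interferon. Cells with the surface phenotype CD45.2+ LSK CD150+ CD48- CD34- were collected by sorting, with 200 cells for each library, at 8 weeks past the final injection. CD45.2 is also carried by cells of the hosts, and the labels give the gate only as CD45.2+. No source used here gives the age of the mice beyond adult or says whether animals were pooled.

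GATA factors are zinc finger proteins that bind DNA at GATA sequences. GATA2 maintains stem and early progenitor cells, GATA1 drives red cell, megakaryocyte and mast cell genes, and GATA3 is best known from T cells. FOG1, encoded by Zfpm1, is the cofactor through which GATA1 activates or represses many of its targets. PU.1, encoded by Spi1, is an ETS factor of myeloid and B cell development that opposes GATA1 when both are present. IRF8 is a partner of PU.1 in monocytes and dendritic cells. C/EBP-alpha (Cebpa) and C/EBP-beta (Cebpb) are basic leucine zipper proteins of granulocyte development, C/EBP-beta mainly under stress. Ikaros (Ikzf1) and Helios (Ikzf2) are zinc finger proteins of lymphoid development that recruit the NuRD repressor complex, and both are present in stem cells.

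The stretches before the transcription start are shown for 3 members on which the results turn: Gata2, the most abundant, Gata1, which differed widely between the IMP1 libraries, and Cebpa, which was almost undetected. Each line gives the 250 bases before an annotated start, 5′ to 3′, from RefSeq on build GRCm38.p6. The counts were made on another build, so these positions were not used to read counts. Gata2 is at chr6:88193641-88193890 on the plus strand, Gata1 at chrX:7967911-7968160 on the minus strand, and Cebpa at chr7:35119043-35119292 on the plus strand.
Gata2: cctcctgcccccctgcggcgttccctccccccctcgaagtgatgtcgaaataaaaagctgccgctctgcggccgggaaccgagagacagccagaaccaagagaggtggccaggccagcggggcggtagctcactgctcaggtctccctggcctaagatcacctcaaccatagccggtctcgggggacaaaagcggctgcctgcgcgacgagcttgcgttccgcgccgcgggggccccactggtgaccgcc
Gata1: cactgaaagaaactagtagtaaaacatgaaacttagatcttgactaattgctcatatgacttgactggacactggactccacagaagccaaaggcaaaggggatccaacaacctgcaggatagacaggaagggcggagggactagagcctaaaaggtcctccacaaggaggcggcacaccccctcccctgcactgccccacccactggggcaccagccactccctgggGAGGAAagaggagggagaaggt
Cebpa: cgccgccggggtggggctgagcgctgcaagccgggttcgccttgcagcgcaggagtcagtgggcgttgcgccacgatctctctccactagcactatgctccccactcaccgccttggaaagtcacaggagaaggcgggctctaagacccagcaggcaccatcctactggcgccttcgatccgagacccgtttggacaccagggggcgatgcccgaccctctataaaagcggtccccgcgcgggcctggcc
Capitals mark GAGGAA, the core of the PU box bound by PU.1, found by a search of both strands. It occurred once, in the Gata1 stretch, 22 bases before the start, and 23.3% of 32851 promoter stretches of the same length hold it. The GATA hexamers, which are AGATAA or AGATAG as well as TGATAA or TGATAG, searched on both strands, had no match in these 3 stretches and are held by 26.5% of all such stretches. TGGGAA, the Ikaros core, had no match either and is held by 21.6%. The windows differ in base composition, with a GC content of 67.2% for Gata2, 54.0% for Gata1 and 66.4% for Cebpa, against a median of 52.4% over all stretches. A match here is a description of letters only. RefSeq entries were found for 8 of the 10 members, and Spi1 and Ikzf2 had none.

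The libraries held between 25749898 and 67083116 counts, and the IMP1 libraries were on average 2.26 times as deep as the Control libraries. Depth therefore moved with genotype, and no label names a batch. Igf2bp1, the re-expressed gene, gave at most 1 count in any Control library and 1870 to 2084 counts in IMP1 libraries. All 9 LT-HSC markers on the list, among them Slamf1, Procr, Hlf and Mecom, had counts in every library, with a summed level of 1576 to 1791 CPM in Control and 2049 to 2287 CPM in IMP1 libraries. CPM is the library-size unit used throughout, counts scaled to a fixed total per library after trimmed mean of M values (TMM) scaling. Transcripts of other blood cells were not evenly spread. The 7 erythroid markers in the table summed to 229 CPM in the library IMP1 1, against 12.2 and 35.2 CPM in the other IMP1 libraries and 21.8 to 24.3 CPM in Control. The 8 neutrophil markers summed to 911 and 509 CPM in IMP1 1 and IMP1 2, against 229 CPM in IMP1 3 and 273 to 315 CPM in Control. In Control and IMP1 3 most of that sum was 1 gene, Prtn3, at 234 to 296 and 206 CPM. The higher sums in IMP1 1 and IMP1 2 were not shared by every marker, as Prtn3 stood at 198 and 213 CPM there and Mpo had 2 and 0 counts. The 7 B lineage markers summed to 147 CPM in IMP1 2, against 71.6 to 105 CPM in the other libraries. These values are given again beside the members they move with.

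No member was called as different between the genotypes at the threshold used, a Benjamini-Hochberg adjusted p under 0.05 over all tested genes. By edgeR's quasi-likelihood test 0 of the 9 members that passed the low-count filter were called, against 0.211% of all 12807 genes tested (0.0703% higher and 0.141% lower in IMP1 libraries). DESeq2 and limma-voom also called 0. At an unadjusted p under 0.05, edgeR counted 1 member, Ikzf2, DESeq2 counted 1 and limma-voom 2, where edgeR's share over all genes was 14.3% (6.67% with positive and 7.63% with negative values). The tenth member, Cebpa, was left out by the filter, with 12 counts over all libraries. Separate ranges in the 2 genotypes were seen for 1 of the 9 tested members, again Ikzf2, against 21.9% of all tested genes. In bulk libraries such as these, fewer cells with a transcript and less of it per cell cannot be told apart. Log2 fold changes are given as IMP1 over Control throughout, with standard errors (SE) and 95% intervals of the fit that are not adjusted for the number of genes.

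**Figure D1:**
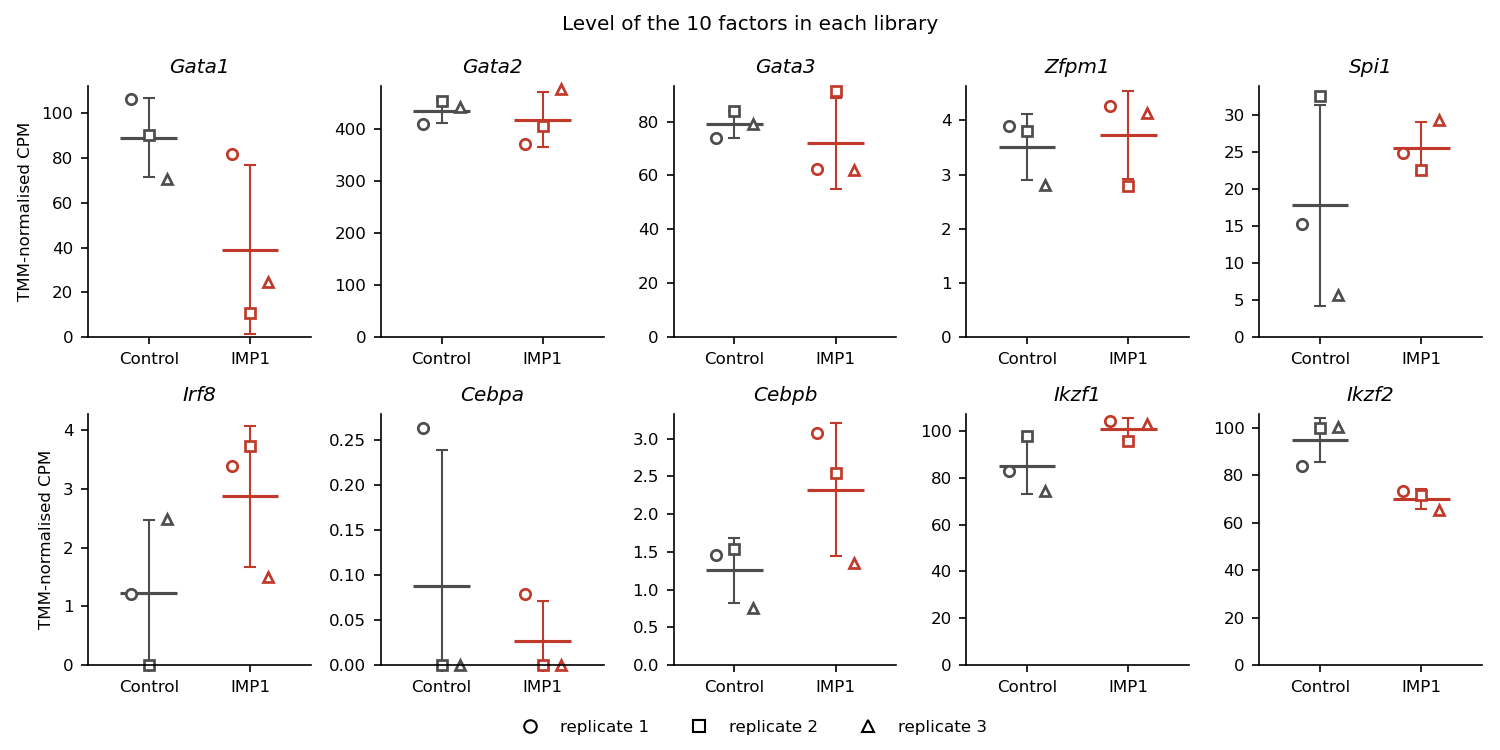
Level of each of the 10 factors in TMM-normalised CPM (y axis, from 0) by genotype (x axis). Symbols are the 3 libraries of a group, horizontal lines the means and bars the SD. The groups overlap for every member except Ikzf2, where the IMP1 libraries lie at 65.3 to 73.3 CPM and the Control libraries at 84.0 to 100.2 CPM.

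Among the GATA factors, Gata2 was the most abundant member. Gata2 (Entrez gene 14461) stood at 409, 453 and 441 CPM in the Control libraries and at 372, 405 and 477 CPM in the IMP1 libraries. The IMP1 libraries spanned the whole Control range, with means of 434 ± 22.7 and 418 ± 53.6 CPM (SD, n = 3). The fitted log2 fold change was −0.055 (SE 0.12, 95% interval −0.32 to 0.21, edgeR adjusted p = 0.879). On a linear scale this interval runs from 0.801 to 1.16 times the Control level. The sign of so small a difference was not fixed, since it was 0.04 without TMM scaling and 0.02 without the library IMP1 1.

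Gata1 (Entrez gene 14460) differed several-fold among the IMP1 libraries. Control libraries held 106, 90.4 and 70.9 CPM, and IMP1 libraries held 81.95, 10.9 and 24.6 CPM. The IMP1 values were split: IMP1 2 and IMP1 3 lay below every Control library, while IMP1 1 lay within the Control range. In counts, IMP1 1 held 5226 reads of Gata1, IMP1 2 754 and IMP1 3 1277, so that the gap is far wider than counting error. The means were 89.2 ± 17.7 and 39.1 ± 37.7 CPM (SD, n = 3), and the log2 fold change was −1.19 (SE 0.63, 95% interval −2.63 to 0.26, adjusted p = 0.453). Leaving out IMP1 1 gave −2.33 (SE 0.41, adjusted p = 0.131), and leaving out IMP1 2 gave −0.75 (adjusted p = 0.603). The value thus rested on which IMP1 library was kept, and it passed the threshold in neither case. IMP1 1 is also the library with the erythroid transcripts. The carbonic anhydrase gene Car1 stood at 146.5 CPM in IMP1 1 against 0.0433 and 14.5 CPM in IMP1 2 and IMP1 3. Klf1, an erythroid factor gene and GATA1 target, stood at 19.0 CPM in IMP1 1 against 1.57 and 5.58 CPM in the other IMP1 libraries, and at 13.5, 3.64 and 2.88 CPM in Control. In Control the 7 erythroid markers summed to 21.8 to 24.3 CPM. The part of erythroid transcripts in the Gata1 level of IMP1 1 was not tested.

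Gata3 (Entrez gene 14462), the GATA factor best known from T cells, was well above zero in all 6 libraries. It stood at 73.9, 83.9 and 79.0 CPM in Control and at 62.5, 91.4 and 62.0 CPM in IMP1 libraries. IMP1 1 and IMP1 3 lay below the Control range and IMP1 2 above it. Its log2 fold change was −0.13 (SE 0.20, 95% interval −0.60 to 0.33, adjusted p = 0.824). The 8 T and NK cell markers summed to 13.5, 31.4 and 19.0 CPM in Control and to 30.7, 50.8 and 44.1 CPM in IMP1 libraries, highest in IMP1 2, which also had the highest Gata3. Of these markers Klrb1c, an NK cell receptor gene, stood at 2.37, 0.277 and 5.56 CPM in Control and at 11.8, 34.1 and 13.9 CPM in IMP1 libraries (adjusted p = 0.238). Its groups did not overlap, which held for 21.9% of all tested genes. Cd3g and Ncr1 were at 0 in all libraries and Cd3e had at most 3 counts in any. Cd4 was seen in IMP1 3 alone, with 315 counts. The part of such transcripts in the Gata3 level was not tested. Gata3 overlaps other annotated genes, of which 4930412O13Rik, on the opposite strand, had 53 counts over all libraries.

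Zfpm1 (Entrez gene 22761), which encodes FOG1, was present at a low level. Its counts were 104, 96 and 70 in Control and 272, 194 and 215 in IMP1 libraries, or 3.905, 3.80 and 2.80 against 4.27, 2.80 and 4.14 CPM. The ranges of the groups overlapped almost fully. The log2 fold change was 0.09 (SE 0.63, 95% interval −1.35 to 1.54, adjusted p = 0.966). On a linear scale the interval spans 0.391 to 2.91 times the Control level, and the fit does not tell apart levels within those bounds. The sign of the log2 fold change turned under several alternatives.

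Spi1 (Entrez gene 20375), which encodes PU.1, differed more among the Control libraries than between the genotypes. Control libraries held 15.2, 32.5 and 5.64 CPM, from 405, 821 and 141 counts, and IMP1 libraries held 24.9, 22.5 and 29.3 CPM, from 1586, 1562 and 1521 counts. All 3 IMP1 values lay inside the Control range, and the SD was 13.6 CPM in Control against 3.43 CPM in IMP1 libraries. The log2 fold change was 0.52 (SE 0.56, 95% interval −0.76 to 1.81, adjusted p = 0.736). Control 2 and Control 3 pulled this value in opposite directions: without Control 2 it was 1.29 (adjusted p = 0.3455), and without Control 3 it was 0.10 (adjusted p = 0.950). The 8 markers of monocytes, macrophages and dendritic cells, many of which depend on PU.1, summed to 438 to 518 CPM in Control and 266 to 315 CPM in IMP1 libraries. Nearly all of that was Lyz2. The other 3 tested markers of the list had positive values and were not called: Cd14 (log2 fold change 1.11, adjusted p = 0.782), Ly6c2 (1.09, adjusted p = 0.667) and Siglech (0.98, adjusted p = 0.636). Ccr2 had 1 count in Control and 105, 8 and 3 counts in IMP1 libraries, and Adgre1 had 2 counts in Control and 165 in IMP1 2 alone. Cd209a was at 0 in all libraries and Csf1r was at 0 in the IMP1 libraries. Their part in the Spi1 level was not tested.

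Irf8 (Entrez gene 15900) was scarce. Control 1, 2 and 3 gave 32, 0 and 62 counts and IMP1 1, 2 and 3 gave 216, 259 and 78, or 1.202, 0 and 2.48 against 3.39, 3.73 and 1.502 CPM. The count of 0 in Control 2 allows a level of up to 0.119 CPM, the level of 3 counts. IMP1 3 lay inside the Control range and the other IMP1 libraries above it. The log2 fold change of 1.23 (SE 1.41, 95% interval −2.01 to 4.46, adjusted p = 0.756) ranged, with 1 library left out, from 0.64 without Control 2 to 2.25 without Control 3. A read-through gene model, Gm20388, overlaps both Irf8 and Zfpm1 on their strand.

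The C/EBP genes were both scarce. Cebpa (Entrez gene 12606) was seen with 7, 0 and 0 counts in Control 1, 2 and 3 and with 5, 0 and 0 counts in IMP1 1, 2 and 3. A count of 0 allows up to 0.119 and 0.120 CPM in Control 2 and Control 3 and up to 0.0433 and 0.0578 CPM in IMP1 2 and IMP1 3. All 12 reads thus came from 1 library of each group. The reads were amplified and carry no molecular identifiers, so such floors cover counting error only. Cebpb (Entrez gene 12608) had 39, 39 and 19 counts in Control and 196, 177 and 70 in IMP1 libraries, or 1.46, 1.54 and 0.760 against 3.07, 2.55 and 1.35 CPM. IMP1 3 lay within the Control range and the other IMP1 libraries above it. The log2 fold change was 0.89 (SE 0.81, 95% interval −0.97 to 2.75, adjusted p = 0.679). IMP1 1 and IMP1 2, the libraries with the higher Cebpb, are also those with the higher neutrophil marker sums, and the part of such transcripts was not tested. Cebpb overlaps Tmem189 on the opposite strand, which had 1641 counts over all libraries, so part of its few reads could belong to that gene. The longest annotated transcripts of the C/EBP genes are rich in G and C, at 62.6% for Cebpa and 67.2% for Cebpb.

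The Ikaros genes Ikzf1 and Ikzf2 were both abundant, and their fitted differences had opposite signs. Ikzf1 (Entrez gene 22778) stood at 82.7, 98.0 and 74.3 CPM in Control and at 104.5, 95.6 and 103 CPM in IMP1 libraries. The groups overlapped through Control 2 alone. The log2 fold change was 0.25 (SE 0.16, 95% interval −0.12 to 0.62, adjusted p = 0.538). With an offset for each library's trend on transcript length and GC content it was 0.09 (adjusted p = 0.877). Ikzf2 (Entrez gene 22779), which encodes Helios, stood at 84.0, 100.04 and 100.2 CPM in Control and at 73.3, 71.6 and 65.3 CPM in IMP1 libraries. Each IMP1 library lay below each Control library. Means were 94.8 ± 9.28 and 70.1 ± 4.24 CPM (SD, n = 3), and the log2 fold change was −0.435 (SE 0.16, 95% interval −0.80 to −0.07, unadjusted p = 0.0245, adjusted p = 0.275). This difference, a level 0.740 times that of Control, did not pass the threshold, and groups that do not overlap were found for 21.9% of all tested genes. With the length and GC offset the value was −0.715 (adjusted p = 0.154). The longest annotated Ikzf2 transcript has 9278 bases, the longest of the 10. In IMP1 2, the library with the highest B lineage sum, Ikzf1 was the lowest of its group and Ikzf2 the middle one. The part of B lineage transcripts was not tested. Antisense genes are annotated over both Ikaros genes.

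**Figure D2:**
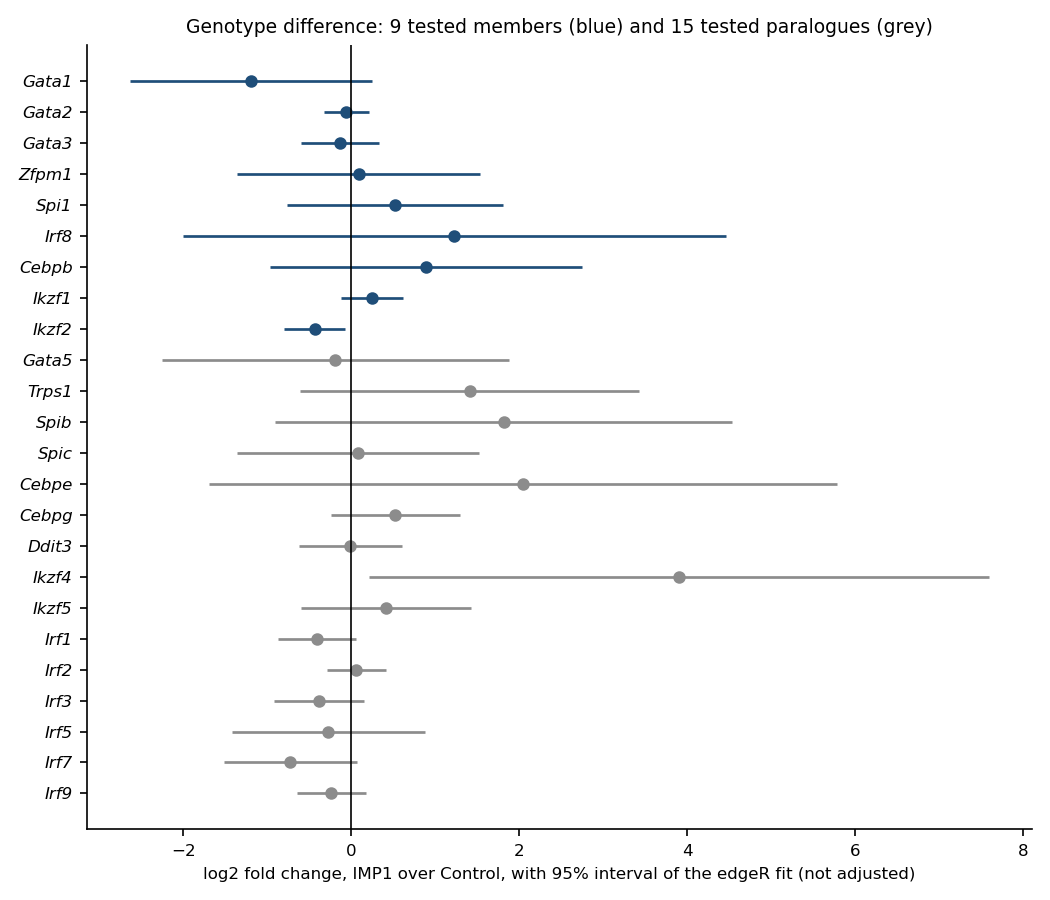
Log2 fold change of IMP1 over Control (x axis) with its 95% interval for the 9 tested members (blue) and 15 of the tested paralogues (grey). The interval of Gata2 runs from −0.32 to 0.21 and that of Irf8 from −2.01 to 4.46. Ikzf2 and Ikzf4 have intervals that leave out 0, and neither passed the adjusted threshold.

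Levels were compared between genes per kilobase of the longest annotated transcript. In Control libraries the order was Gata2 (122 CPM per kilobase), Gata1 (46.9), Gata3 (24.6), Ikzf1 (16.5), Ikzf2 (10.2), Spi1 (8.74), Zfpm1 (1.03), Cebpb (0.835), Irf8 (0.354) and Cebpa (0.0334), all on that scale. The ranges over libraries of the first 5 were separate from one another. The wide range of Spi1 overlapped those of Ikzf2 and Ikzf1, and ranges also overlapped in each neighbouring pair from Zfpm1 to Cebpa. In IMP1 libraries Gata2 was again first at 117 CPM per kilobase, with no overlap with the next. Gata3 (22.4), Gata1 (20.6) and Ikzf1 (19.6) then followed with overlapping ranges. Spi1 came next at 12.6 and Ikzf2 at 7.55 CPM per kilobase, with ranges that did not overlap. Cebpb (1.55), Zfpm1 (1.10) and Irf8 (0.829) overlapped in turn, and Cebpa was last at 0.00995 CPM per kilobase. The order of Gata1 and Gata3, and that of Spi1 and Ikzf2, were thus exchanged between the genotypes, on means whose differences between genotypes were not called.

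**Figure D3:**
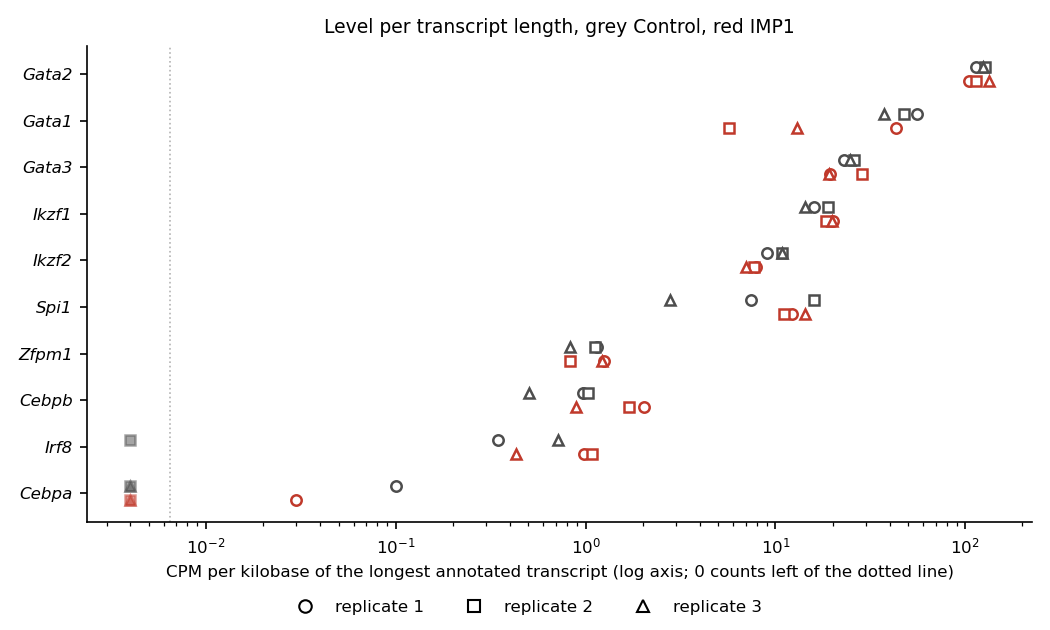
Level of each member in CPM per kilobase of its longest annotated transcript (x axis, log scale) in the Control (grey) and IMP1 (red) libraries, ordered by the Control mean. Filled symbols left of the dotted line are libraries with 0 counts. Gata2 lies at 104 to 133.5 CPM per kilobase in all 6 libraries, while Cebpa has counts in 2 libraries.

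Ratios of opposing factors within a library do not depend on library scaling, and 0.5 was added to each count. The log2 ratio of Gata2 to Spi1 counts was 4.75, 3.80 and 6.28 in Control and 3.90, 4.17 and 4.02 in IMP1 libraries. The IMP1 values lay within the Control range, and the difference of −0.91 had p = 0.4 in an exact two-sided permutation test. The log2 ratio of Gata1 to Spi1 was 2.80, 1.48 and 3.65 in Control and 1.72, −1.05 and −0.25 in IMP1 libraries. In IMP1 2 and IMP1 3 the Spi1 counts exceeded those of Gata1, which was the case in no Control library. The mean difference was −2.50 (exact permutation p = 0.2). The log2 ratio of Gata1 to Gata2, the pair that exchanges at shared sites during red cell development, was −1.94, −2.32 and −2.64 in Control and −2.18, −5.22 and −4.28 in IMP1 libraries. IMP1 1 again lay within the Control range, and the difference of −1.59 had an exact permutation p of 0.3. With 3 libraries against 3 the smallest p this test can give is 0.1, so it could not pass a threshold of 0.05. The 3 ratios share genes, and their p-values with Benjamini-Hochberg adjustment over the 3 are all 0.4.

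The close relatives of the members were examined next. Of 22 paralogues 16 were tested, and 0 were called (2 at an unadjusted p under 0.05, against 14.3% of all tested genes). Gata4 and Zfpm2, factors of heart and gonad, had 0 counts in every library, Gata6 had 1 count and Gata5 at most 26 in any library. Trps1, an atypical GATA repressor, stood at 7.64 ± 8.31 against 20.3 ± 6.28 CPM (1.41 on the log2 scale, adjusted p = 0.525). Of the ETS factors nearest to PU.1, Spic, known from red pulp macrophages, stood at 10.9 ± 2.84 against 11.5 ± 7.43 CPM. Spib, known from B cells and plasmacytoid dendritic cells, was at 5.204 CPM in IMP1 2 and at most 0.920 CPM in the other libraries. IMP1 2 is the library with the higher B lineage sum, whose part was not tested. Among C/EBP relatives, Cebpg, which lacks an activation domain, stood at 34.05 ± 8.75 against 49.0 ± 17.6 CPM (0.53, adjusted p = 0.534) and the stress factor gene Ddit3 at 31.0 ± 6.67 against 30.8 ± 4.26 CPM (−0.01, adjusted p = 0.992). Per kilobase of transcript, Cebpg ranged from 5.33 to 13.65 CPM and Ddit3 from 24.1 to 36.8 CPM, while Cebpb reached at most 2.04 CPM. The granulocytic factor gene Cebpe had 13 counts over the Control and 141 over the IMP1 libraries, and Cebpd had 11 and 62.

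Of the other Ikaros genes, Ikzf3 (Aiolos) had 0 counts in Control and 2 in IMP1 libraries. Ikzf4 (Eos) was uneven, at 1.43, 0 and 0.200 CPM in Control and 15.2, 0.793 and 8.55 CPM in IMP1 libraries. IMP1 2 lay within the Control range and the other IMP1 libraries above it (log2 fold change 3.90, SE 1.61, adjusted p = 0.320). Ikzf5 (Pegasus) stood at 32.4 ± 11.8 against 43.1 ± 20.9 CPM. Among IRF relatives, Irf2, a repressor of interferon signalling that protects stem cells, stood at 182 ± 11.4 against 190 ± 34.7 CPM (0.06, adjusted p = 0.904). The interferon-responsive Irf1, Irf7 and Irf9 stood at 189 against 143, 41.9 against 25.3 and 169 against 144 CPM, and none was called, with adjusted p-values of 0.424, 0.399 and 0.619. Irf3 (46.0 against 35.2 CPM) and Irf5 (14.0 against 11.6 CPM) were not called either, and Irf4 had 9 counts in Control and 0 in IMP1 libraries.

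The partners of these factors ranged widely in level, with Egr2 at 0 counts in every library and Jun and Trib1 at Control means of 5.44 and 2.085 CPM. Of 36 tested partners 0 were called. At an unadjusted p under 0.05 there were 8, 3 with positive and 5 with negative values, against 14.3% of all tested genes. Of 12 partners in GATA complexes all were tested. The 2 most abundant were the ETS factor gene Fli1 (631.5 ± 36.6 against 719 ± 135 CPM, a log2 value of 0.19 with an adjusted p of 0.591) and Lmo2, the bridging protein of the complex (413.5 ± 41.7 against 541 ± 76.7 CPM, 0.39, adjusted p = 0.244). The list's median log2 fold change was 0.115, against 0.03 over all tested genes. Of 11 partners and antagonists of PU.1 and C/EBP factors 10 were tested. Myb stood at 247 ± 42.4 against 337 ± 55.9 CPM (0.45, adjusted p = 0.285) and Runx1 at 89.7 ± 18.7 against 117 ± 20.2 CPM (0.39, adjusted p = 0.457). The median of that list was 0.57. Of 16 genes for the NuRD complex and related corepressors, used by FOG1 and Ikaros, all were tested, with a median of −0.04. Rbbp7, a histone-binding subunit, stood at 411 ± 39.2 against 481 ± 42.2 CPM and the deacetylase gene Hdac1 at 327 ± 18.7 against 253 ± 46.6 CPM, neither called, with adjusted p-values of 0.411 and 0.300. For both of these the groups did not overlap. This held for 5 of the 16 genes and for 21.9% of all tested genes.

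Genes known to be controlled by the members were the last set. Of 58 listed targets 56 were found in the table and 44 tested. Of these 2 were called, both higher, among them Hbb-b1, against 0.211% of all tested genes (0.0703% higher). At an unadjusted p under 0.05 there were 19, with 10 positive and 9 negative values, against 14.3% of all tested genes. Hbb-b1, an adult beta-globin gene whose reads could be shared out among similar globin copies, stood at 17.9, 13.6 and 19.3 CPM in Control and at 76.3, 59.9 and 51.5 CPM in IMP1 libraries, and rose by a log2 fold change of 1.89 (SE 0.26, adjusted p = 0.0448). Each IMP1 library lay above each Control library. The call was lost in each fit with 1 library left out, with adjusted p-values of 0.106 to 0.189, and in limma-voom (0.0869). The log2 fold change stayed at 1.72 or more. Hbb-b1 had no annotated transcript length here, so the length and GC offset did not act on it. In that fit its log2 fold change was again 1.89, and its adjusted p over all genes was 0.0667. Gata1 lay below every Control library in IMP1 2 and IMP1 3, in which Hbb-b1 was above every Control library. The relation between these levels was not tested.

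Nfe2, a megakaryocyte and erythroid factor gene, stood at 364, 427 and 452 CPM in Control and at 271.5, 311 and 342 CPM in IMP1 libraries (log2 fold change −0.43, SE 0.13, adjusted p = 0.197). Gfi1b, a repressor gene that GATA1 activates, stood at 234, 299.8 and 217 CPM in Control and at 183, 83.5 and 175 CPM in IMP1 libraries (−0.77, SE 0.285, adjusted p = 0.283). For both the groups did not overlap, which held for 21.9% of all tested genes. The lowest Gfi1b value was in IMP1 2, the library with the lowest Gata1. The transferrin receptor gene Tfrc stood at 24.8 ± 12.2 against 59.8 ± 20.6 CPM, and Kit, the receptor for stem cell factor, at 415 ± 54.2 against 505 ± 90.8 CPM. Neither was called, with adjusted p-values of 0.240 and 0.457. The medians were 0.83 over 6 erythroid targets, −0.31 over 7 megakaryocyte targets and −0.05 over 6 targets of mast cells and progenitors. The 6 megakaryocyte markers summed to 363 to 708 CPM in Control and 268 to 474 CPM in IMP1 libraries, and the part of such transcripts was not tested.

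**Figure D4:**
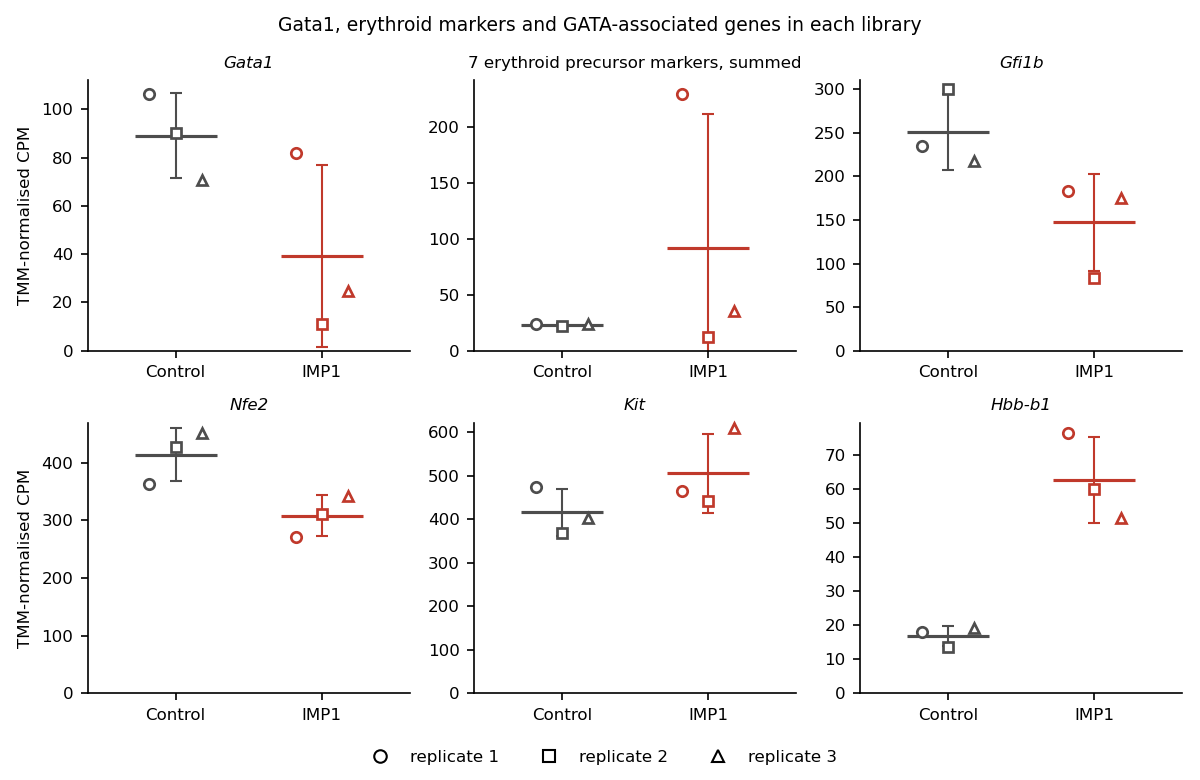
TMM-normalised CPM (y axes, from 0) by genotype for Gata1, the sum of the 7 erythroid precursor markers, and 4 GATA-associated genes, with the mean and SD of 3 libraries (bars end at 0 where the SD exceeds the mean). IMP1 1 (circle) has the highest Gata1 of its group and an erythroid sum of 229 CPM, while Hbb-b1 lies at 51.5 to 76.3 CPM in all IMP1 libraries and at 13.6 to 19.3 CPM in Control.

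Of 13 tested PU.1 targets 0 were called, and 9 had positive and 4 negative values, with a median of 0.55. At an unadjusted p under 0.05 there were 4, with 1 positive and 3 negative values, against 14.3% of all tested genes. The 2 most abundant were the lysosomal membrane gene Laptm5 at 484 ± 70.2 against 334 ± 76.3 CPM (−0.535 on the log2 scale, adjusted p = 0.253) and the lysozyme gene Lyz2 at 462.5 ± 45.9 against 288 ± 22.9 CPM (−0.68, SE 0.11, adjusted p = 0.0614). For both genes every IMP1 library lay below every Control library, while Spi1 itself overlapped. Groups did not overlap for 3 of the 13 targets, against 21.9% of all tested genes. The third, Cybb, went the other way, with 0 counts in Control and 463, 60 and 128 counts in IMP1 libraries (adjusted p = 0.0932). Of 9 tested C/EBP targets 0 were called. At an unadjusted p under 0.05 there were 5, with 3 positive and 2 negative values, against 14.3% of all tested genes, and the median was 0.12. The list held large differences in both directions in genes scarce in 1 group. Lcn2, a neutrophil granule gene, had 1 count over the Control libraries and 1036, 259 and 83 counts in IMP1 libraries (adjusted p = 0.0750). The myeloperoxidase gene Mpo had 673, 187 and 9 counts in Control and 2, 0 and 0 in IMP1 libraries (adjusted p = 0.0850). The granule genes Ngp and Camp overlapped between the groups and were highest in IMP1 1, at 172 and 62.9 CPM, the library with the highest neutrophil sum, whose part was not tested. Prtn3, a serine protease gene of neutrophil granules, stood at 258 ± 33.3 against 206 ± 7.31 CPM (−0.33, adjusted p = 0.287), and the receptor gene Csf3r at 59.8 ± 13.7 against 59.98 ± 14.8 CPM (0.01, adjusted p = 0.995). These were detected in every library while Cebpa was at 0 in 4 of them. Of 5 tested lymphoid genes that depend on Ikaros 0 were called. At an unadjusted p under 0.05 there were 2, with 1 positive and 1 negative value, against 14.3% of all tested genes. Groups did not overlap for 2 of the 5, against 21.9% of all tested genes. Notch1 stood at 12.1 ± 2.21 against 19.2 ± 2.03 CPM (0.67, adjusted p = 0.419). Il7r, the receptor gene of lymphoid progenitors, had at most 6 counts in any library. Dntt had 17, 0 and 0 counts in Control and 1, 1544 and 243 in IMP1 libraries (adjusted p = 0.342). Igll1 and Rag2, not tested, were at 0 in Control and had most of their counts in IMP1 2, with 2300 and 400. IMP1 2 is the library with the highest B lineage sum, whose part was not tested.

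Genes whose pattern over the 6 libraries lay nearest to a member were sought among 5477 genes with a mean log2 CPM over 5, by the root mean square difference of log2 CPM centred on each gene's mean. For Gata2 these were Sh3glb1, Psmd12 and 9930021J03Rik, with differences of 0.047 to 0.050 log2 units against a median of 0.286 over all genes compared. For Ikzf1 they were Arid4a, Sephs2 and Aebp2, at 0.048 to 0.054 against a median of 0.325. For Spi1, whose Control libraries were far apart, they were Hif1a, H13 and Pgls, at 0.226 to 0.343 against 0.905. Cebpa had too few counts for a pattern. With 6 libraries and so many genes such nearness is a description of these libraries only.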

How the data were processed

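Reads had been counted per Entrez gene by the authors, who deposited raw counts with a column for each library (file headers). Per the submitters' processing notes, TopHat2 2.0.10 and build mm9 were used. The sources used here do not give the counting program, strand setting or annotation. Per the labels' protocols, a SMARTer Ultra Low kit amplified the cDNA. Symbols came from RefSeq (GRCm38.p6), which matched 21615 of 21761 identifiers, and transcript length and GC content from the longest GENCODE M21 transcript. The main test was edgeR 4.0.16 (glmQLFit, glmQLFTest, R 4.3.3) with TMM scaling, filterByExpr and a design of genotype alone over the 6 libraries, adjusted over all genes. On simulated data it called 19% of the changes of 1 log2 unit and 73.5% of those of 3 log2 units, with 4 false calls among 95. A member that was not called could therefore still differ. The SE is the absolute log2 fold change over the square root of F. Alternatives used DESeq2 1.42.0, limma 3.58.1, other scalings and filters, thinning to 25749898 counts, a loess offset (span 0.4), a replicate block and each library left out. Members and lists were chosen with earlier results of these data known. Named were the members, all paralogues and, per other list, called genes and the 2 most abundant, except for a few genes that are not reported here. Genes outside that rule (Car1, Klf1, Cd3e, Cd3g, Il7r, Csf1r, Cd209a, Klrb1c, Ncr1, Cd4, Cd14, Ly6c2, Siglech, Ccr2, Adgre1, Egr2, Jun, Trib1, Lcn2, Mpo, Ngp, Camp) were named after their values were seen. The labels call the libraries biological replicates, and none was a duplicate, with a chi-square per degree of freedom of at least 61.0 between libraries. 0 columns were left unmatched.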

Additional observations from a re-analysis of the deposited data

How the results depend on the processing

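The count of called members was 0 in all 17 alternatives. Direction held in all 17 for Gata1 (−2.33 to −0.75), Gata3 (−0.34 to −0.035), Spi1 (0.10 to 1.29), Irf8 (0.64 to 2.82), Cebpb (0.63 to 1.16), Ikzf1 (0.09 to 0.365) and Ikzf2 (−0.715 to −0.34). Gata2 reversed without TMM scaling (0.039) and without IMP1 1 (0.024), and with 1 library left out it ranged from −0.16 to 0.024. Zfpm1 reversed with the length and GC offset (−0.034) and with that offset and the replicate block (−0.08), and with 1 library left out it ranged from −0.046 to 0.26. The adjusted p ranged over the alternatives from 0.131 to 0.666 for Gata1 and from 0.154 to 0.455 for Ikzf2. The difference in the log2 ratio kept its sign with 1 library left out, from −1.48 to −0.24 for Gata2 to Spi1, from −3.29 to −1.91 for Gata1 to Spi1 and from −2.45 to −0.93 for Gata1 to Gata2.

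Over all genes edgeR as described called 27 genes. DESeq2 called 694, limma-voom 11, edgeR with legacy = FALSE 49, the fit without TMM scaling 16 (9 higher and 7 lower, against 9 and 18), the strict filter 127, and the length and GC offset 12 (6 higher and 6 lower). The cause of these differences was not tested. With the replicate block, which ended the call of Hbb-b1 (adjusted p = 0.119) and left Gata1 at −1.64 (adjusted p = 0.281), 4 were called, and with the block and the offset 0 (1449 at an unadjusted p under 0.05). Same-numbered libraries did not deviate together (r of −0.008 to 0.031 across genes), and not every library correlated best with its own number. With 1 library left out, 0 to 2 were called. Thinning to equal depth left Irf8 at 1.19 and Cebpb at 0.90. Irf8, Cebpa, Cebpb and Zfpm1 each had at most 270 counts over the Control libraries, so their values carry the counting error of few reads.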
